A study of Mus musculus with 16 samples.

Results

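Complement is a cascade of serum and cell-surface proteins that marks cells and microbes for clearance and sets off inflammation. In the classical pathway C1q binds its target and activates the proteases C1r and C1s, which cleave C4 and C2 into a C3 convertase. In the alternative pathway factor B supplies the protease of the convertase, both routes meet at C3, and the fragments C3a and C5a signal through receptors on myeloid cells. Liver supplies most of the circulating proteins, and fibroblasts, epithelia and macrophages also make complement in tissue.

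The genes described here are 9 of the 22298 in the count files: the C1 proteases C1ra and C1s1, their inhibitor Serping1, the convertase components C2, C4b, C3 and Cfb, and the anaphylatoxin receptors C3ar1 and C5ar1. They were chosen by name, and their Ensembl identifiers were paired with symbols. All 9 passed the filter of at least 10 counts over the 16 tumors, with 4886 counts for C2 to 126660 counts for C3.

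RNA was sequenced from abdominal tumors of wild-type 615-line mice, sex-matched and 6 weeks old, that had been injected intraperitoneally with 500000 MFC cells, a line of mouse forestomach carcinoma. Of the tumors, 8 came from mice given PBS (vehicle) and 8 from mice given intraperitoneal IL-33, an alarmin cytokine of the IL-1 family, at 20 μg/kg every other day. The labels did not state that the tumors came from separate animals, and the methods describe fewer mice per group for this model than the 8 tumors sequenced. Some tumors may thus share an animal, and the p-values measure the spread between these tumors, part of which may be technical, and would then be too small. The samples were whole tumor tissue grown from 1 cell line, and fewer cells of a type and less RNA per cell cannot be told apart in them.

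The total count lay between 14139268 and 24290794 in vehicle tumors and between 16569613 and 24288893 in IL-33 tumors. Levels are given as CPM, the count of a gene scaled to a common total count per tumor. The IL-33 tumor numbered 7 (IL-33 replicate 7) stood apart from the other 15. A list of 6 genes of the female reproductive tract, led by the oviduct glycoprotein Ovgp1, summed to 1170 CPM there and to 1.44 to 3.93 CPM elsewhere. The 10 fibroblast genes summed to 15340 CPM in it against 571 to 7075 CPM elsewhere, and 9 of the 10 had their highest level in it. Of 7 epithelial genes, Krt8 (181 to 975 CPM) and Krt19 (44.5 to 690 CPM) were present in the other 15 tumors, while Krt18, Epcam, Cdh1, Cldn4 and Cldn7 did not exceed 3.01 CPM in any of them and reached 13.5 to 159 CPM in IL-33 replicate 7. Of 7 mesothelial genes, Upk3b, Wt1, Lrrn4, Upk1b and Gpm6a were also highest in it (9.06 to 139 CPM, at most 3.90 CPM elsewhere), while Msln was lowest there (92.5 CPM, 375 to 1243 CPM elsewhere). The TMM scaling factor was lowest in vehicle replicate 4 (0.640) and highest in IL-33 replicate 7 (1.24). CPM do not use this factor, so CPM are lower in vehicle replicate 4 than TMM-scaled levels. The order of tumors given below is that in CPM and can differ after TMM scaling. The part of this tissue content in the results was not tested, and the comparison of each of the 9 genes is given with and without that tumor.

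No difference between IL-33 and vehicle tumors in the 9 genes was larger than the spread between tumors. With edgeR's quasi-likelihood test 0 of 9 passed an adjusted p of 0.05, beside 0.0% of the 16817 genes tested. At an unadjusted p under 0.05 the count was again 0 of 9, beside 11.2% of all genes, 9.99% higher and 1.17% lower in IL-33 tumors. DESeq2 and limma voom also gave 0 of 9 on both thresholds with all 16 tumors. The fitted log2 fold change was above 0 for 8 of the 9 genes with a median of 0.33, beside a median of 0.06 over all genes tested. Without IL-33 replicate 7 it was above 0 for 3 of 9 with a median of -0.15, beside -0.01 over all genes.

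Leaving out that tumor changed the sign for C3, C4b, C2, C1s1 and Serping1. IL-33 replicate 7 had the highest level of 6 of the 9 (C1ra, C1s1, Serping1, C2, C4b and C3), beside 43.0% of all genes tested. The summed level of the 9 genes was 6049 CPM in that tumor, 417 to 1281 CPM in the other 7 IL-33 tumors and 488 to 1217 CPM in the vehicle tumors.

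**Figure D1:**
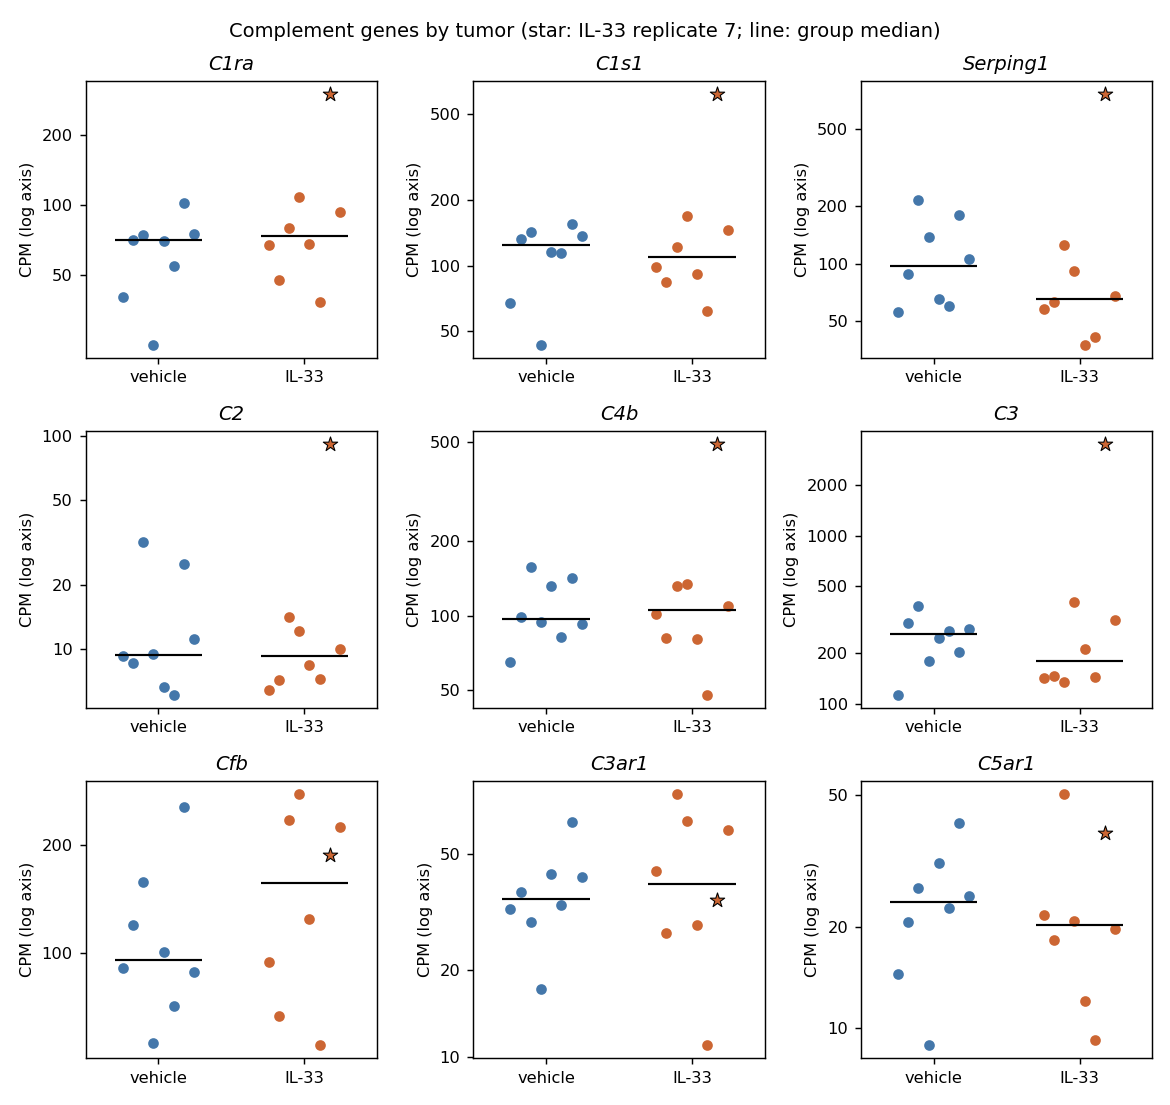
Level of each of the 9 complement genes in each tumor, in CPM on a log axis, for 8 vehicle and 8 IL-33 tumors (points; the line is the group median and the star is IL-33 replicate 7). The star lies above every other tumor for C1ra, C1s1, Serping1, C2, C4b and C3, and inside the range of the others for Cfb, C3ar1 and C5ar1.

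C1ra and C1s1 encode the proteases C1r and C1s of the C1 complex. They lie near each other on opposite strands of chromosome 6 (C1ra at chr6:124512405-124523443, plus strand; C1s1 at chr6:124530345-124542359, minus strand; mm10, GENCODE M21). Promoter windows from RefSeq (GRCm38.p6), 250 bases before to 50 bases after a start, were available for 5 of the 9 genes. The windows of C1ra (chr6:124512371-124512670, plus strand) and C1s1 (chr6:124542310-124542609, minus strand) are printed because these 2 genes varied together most closely of all pairs, and that of C3 (chr17:57228087-57228386, minus strand) because C3 carried the largest excess in 1 tumor. Capitals mark matches on either strand to TTGCNNAA, a core of C/EBP sites, and to TTCNNNGAA, the letters of an interferon-gamma activated site.
C1ra: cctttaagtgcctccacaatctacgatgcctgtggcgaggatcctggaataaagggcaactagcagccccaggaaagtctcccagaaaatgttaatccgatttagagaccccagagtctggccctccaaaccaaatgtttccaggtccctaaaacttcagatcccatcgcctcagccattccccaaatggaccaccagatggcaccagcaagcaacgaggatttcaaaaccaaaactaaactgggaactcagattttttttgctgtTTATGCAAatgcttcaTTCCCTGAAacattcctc
C1s1: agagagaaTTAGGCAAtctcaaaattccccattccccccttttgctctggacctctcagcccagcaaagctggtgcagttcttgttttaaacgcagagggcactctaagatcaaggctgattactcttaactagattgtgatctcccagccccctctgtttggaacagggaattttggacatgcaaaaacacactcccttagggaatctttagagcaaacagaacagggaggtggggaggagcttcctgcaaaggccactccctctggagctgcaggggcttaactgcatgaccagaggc
C3: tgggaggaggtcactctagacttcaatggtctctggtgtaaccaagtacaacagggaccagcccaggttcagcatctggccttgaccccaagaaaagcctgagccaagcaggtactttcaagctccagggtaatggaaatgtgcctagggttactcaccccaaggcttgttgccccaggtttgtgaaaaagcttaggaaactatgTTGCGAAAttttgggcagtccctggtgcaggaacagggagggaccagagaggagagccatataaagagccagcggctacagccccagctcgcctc

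The first of these motifs begins at position 17 of C1ra, -242 of C1s1 and -45 of C3, counted from 1 at the start. It was present in 10.8% of the 32851 promoter windows of the table. TTCNNNGAA was found at position 33 of C1ra and in 8.30% of all windows. The C1ra start used here is that of RefSeq and lies inside the GENCODE gene. Most of the C1ra window, with both of its motifs, thus lies past the GENCODE start. A κB-like motif (GGG and TTTCC with 2 bases between) stood at position -14 of the C3ar1 window and in 1.63% of all windows, and an interferon-stimulated element (GAAA repeated with 2 bases between) was in 3.44% of all windows and in none of the 5 genes. The C5ar1 window held none of the 4, and neither did the window of a second C1s1 start. C4b, C2, Cfb and Serping1 had no window in the table.

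C1ra was at 25.0, 70.5 and 102 CPM (lowest, median and highest) in vehicle tumors and at 38.4, 73.7 and 301 CPM in IL-33 tumors. C1s1 was at 43.1, 125 and 156 CPM in vehicle tumors and at 62.0, 110 and 621 CPM in IL-33 tumors. In CPM both genes were lowest in vehicle replicate 4 and highest in IL-33 replicate 7, followed by IL-33 replicate 4 (108 and 170 CPM). The groups overlapped. The log2 fold change was 0.51 ± 0.31 (SE, 8 tumors against 8) for C1ra, with an adjusted p of 0.579 in edgeR's test, and 0.46 ± 0.36 for C1s1, with an adjusted p of 0.684. Without IL-33 replicate 7 these became 0.14 ± 0.21 and -0.07 ± 0.21, and the 95% interval of the C1s1 fold was 0.703 to 1.29.

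The level of C1s1 per kilobase of exon was 1.46 to 2.01 times that of C1ra in vehicle tumors and 1.29 to 1.97 times in IL-33 tumors. This ratio in IL-33 replicate 7, 1.97, was within the vehicle range although both genes were at their highest there. Each has a tandem copy, C1rb and C1s2. The transcripts shared 48.0% of the 50-base windows of C1ra with C1rb and 24.3% of those of C1s1 with C1s2, so reads could be split or dropped between copies. C1rb had 16 counts and C1s2 96 counts over all tumors.

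Serping1 encodes the C1 inhibitor, the serpin that inactivates C1r and C1s (chr2:84765387-84775444, minus strand). Its level was 56.0, 97.2 and 215 CPM in vehicle tumors and 37.6, 65.3 and 768 CPM in IL-33 tumors. IL-33 replicate 7 held 59.3% of all Serping1 counts of the IL-33 group. Of the other 7 IL-33 tumors, 1 was above the vehicle mean of 113 CPM, and 2 lay below the lowest vehicle tumor. The fit over all tumors gave a log2 fold change of 0.19 ± 0.55 (adjusted p = 0.949, edgeR), while the difference of mean log2 CPM was -0.21 (exact permutation p = 0.742).

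Without IL-33 replicate 7, Serping1 was the only 1 of the 9 past an unadjusted p of 0.05, beside 4.12% of the 15803 genes then tested, 2.29% of them lower. Its log2 fold change was then -0.82 ± 0.34 with a 95% interval of the fold from 0.345 to 0.928 (unadjusted p = 0.0267, adjusted p = 0.964, edgeR). The exact permutation test of the same 15 tumors gave a difference of -0.66 and p = 0.0831. With vehicle replicate 4 also left out, edgeR gave -0.65 with an unadjusted p of 0.0632. The difference did not pass adjustment over all genes in any of these tests.

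C2 and C4b supply the protease and the scaffold of the classical C3 convertase. Both lie in the major histocompatibility region of chromosome 17, C2 at chr17:34862604-34898265 and C4b at chr17:34728380-34743882, on the minus strand and with Cfb beside C2 (chr17:34856374-34862518, minus strand). C2 was the lowest of the 9 genes per length, with a median of 2.42 CPM per kilobase of exon over all tumors, against 17.6 for C4b.

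C2 was at 6.11, 9.38 and 31.8 CPM in vehicle tumors and at 6.45, 9.28 and 92.0 CPM in IL-33 tumors. Besides IL-33 replicate 7, vehicle replicates 3 and 7 (31.8 and 25.1 CPM) were high, and the other 13 tumors lay between 6.11 and 14.2 CPM. The log2 fold change was 0.33 ± 0.53 (adjusted p = 0.881, edgeR) with all tumors and -0.57 ± 0.34 (adjusted p = 0.964) without IL-33 replicate 7. C2 overlaps Zbtb12 on the opposite strand, which had 4474 counts beside 4886 for C2, and Gm20547, which had 13 counts, on the same strand. The use of strand in counting was not given in the sources used here, so reads of C2 and Zbtb12 cannot be told apart where they overlap.

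C4b was at 64.9, 96.9 and 157 CPM in vehicle tumors and at 47.8, 105 and 494 CPM in IL-33 tumors. Outside IL-33 replicate 7 the highest tumor was vehicle replicate 3, and the lowest of all was IL-33 replicate 6. Its log2 fold change was 0.25 ± 0.34 (adjusted p = 0.850, edgeR) and became -0.22 ± 0.21 (adjusted p = 0.964) without IL-33 replicate 7, when the 95% interval of the fold was 0.628 to 1.18. C4b shared 35.2% of its 50-base windows with C4a, a near-identical gene that is absent from the count files. The count of C4b is thus uncertain.

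C3 encodes the protein at which all complement pathways meet and from which C3a and C3b are cut (chr17:57203970-57228136, minus strand). It had the highest median per length of the 9 genes, 44.9 CPM per kilobase of exon. C3 was at 113, 260 and 383 CPM in vehicle tumors and at 135, 180 and 3512 CPM in IL-33 tumors. The level in IL-33 replicate 7 was 8.72 times that of the next tumor, IL-33 replicate 4 with 403 CPM, and made up 67.9% of the C3 counts of the IL-33 group.

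The mean of C3 was 248 ± 82.4 CPM in vehicle tumors (SD, n = 8) and 627 ± 1170 CPM in IL-33 tumors (SD, n = 8), or 215 ± 106 CPM (n = 7) without replicate 7. The ratio of the means was 2.53 with that tumor and 0.866 without it. In edgeR's fit the log2 fold change was 1.07 ± 0.61 (adjusted p = 0.547) and then -0.28 ± 0.26 (adjusted p = 0.964, 95% interval of the fold 0.560 to 1.22). The vehicle mean was exceeded by 3 of the 8 tumors given IL-33.

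Cfb encodes factor B, the protease of the alternative convertase. It was at 55.9, 95.6 and 255 CPM in vehicle tumors and at 55.1, 156 and 278 CPM in IL-33 tumors, and IL-33 replicate 7 (188 CPM) did not stand apart. High tumors were found in both groups, with IL-33 replicates 4, 3 and 8 (278, 235 and 225 CPM) and vehicle replicate 7 (255 CPM) at the top. The log2 fold change was 0.34 ± 0.32 (adjusted p = 0.755, edgeR) with all tumors and 0.35 ± 0.34 (adjusted p = 0.964) without IL-33 replicate 7, the 95% interval of the fold then reaching from 0.777 to 2.09. The ratio of C3 to Cfb counts was 18.7 in IL-33 replicate 7 and 0.575 to 3.84 in the other 15 tumors.

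C3ar1 and C5ar1 encode the receptors of C3a and C5a, which are best known on myeloid cells (chr6:122847138-122856161 and chr7:16246743-16259540, both on the minus strand). Per length their medians were alike, 8.31 CPM per kilobase of exon for C3ar1 and 8.32 for C5ar1. C3ar1 was at 17.1, 35.1 and 64.5 CPM in vehicle tumors and at 10.98, 39.2 and 80.4 CPM in IL-33 tumors. C5ar1 was at 8.84, 23.8 and 41.2 CPM in vehicle tumors and at 9.19, 20.4 and 50.4 CPM in IL-33 tumors. In CPM, IL-33 replicate 3 had the highest level of both, the lowest C3ar1 was in IL-33 replicate 6 and the lowest C5ar1 in vehicle replicate 4.

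The log2 fold change of C3ar1 was 0.16 ± 0.30 (adjusted p = 0.908, edgeR) with all tumors and 0.23 ± 0.30 (adjusted p = 0.964) without IL-33 replicate 7. For C5ar1 it was -0.08 ± 0.30 (adjusted p = 0.961, edgeR) and -0.15 ± 0.30 (adjusted p = 0.970), so that leaving that tumor out moved neither receptor much. The 95% intervals of the fold with all tumors, 0.724 to 1.72 for C3ar1 and 0.613 to 1.46 for C5ar1, hold both a rise and a fall of moderate size. For single genes the two-sided exact permutation test over all 16 tumors gave p between 0.276 (C1ra) and 0.880 (C2), and an adjusted p of 1.0 for each of the 9.

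**Figure D2:**
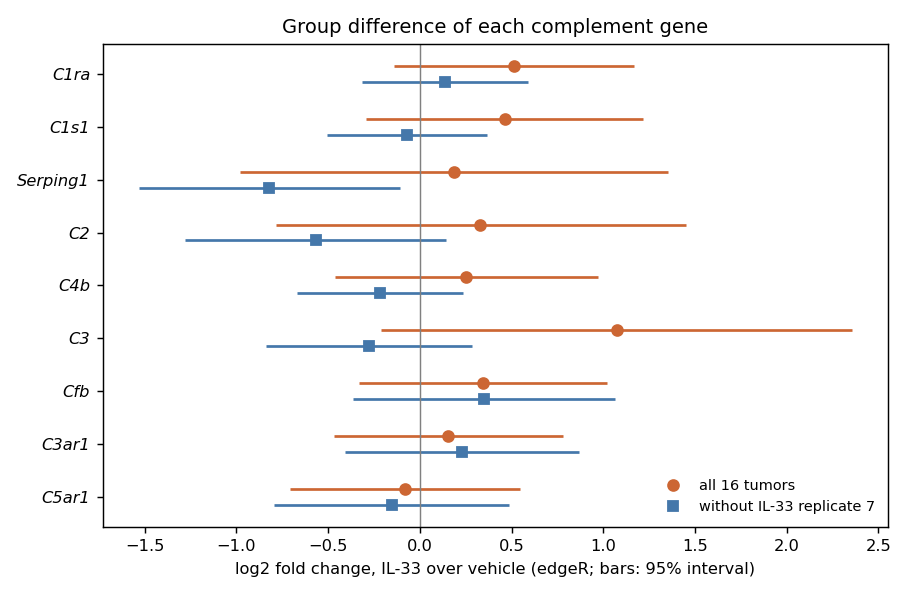
Log2 fold change of each gene, IL-33 over vehicle, from edgeR (points) with its 95% interval (bars), for all 16 tumors and for the 15 without IL-33 replicate 7. All 9 intervals over 16 tumors hold 0. Without IL-33 replicate 7 C3 moves from 1.07 to -0.28 and Serping1 from 0.19 to -0.82, while Cfb, C3ar1 and C5ar1 stay near their place.

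Per kilobase of exon the order of the medians over 16 tumors was C3 (44.9), Cfb (38.9), C1s1 (38.1), Serping1 (33.5), C1ra (23.7), C4b (17.6), C5ar1 (8.32), C3ar1 (8.31) and C2 (2.42). The ranges of the first 4 overlapped widely, as did those of the 2 receptors. This order is that of both groups together, and C3 led in vehicle tumors (50.6) and Cfb in IL-33 tumors (55.3). Exon lengths are those of the annotation and not of the transcripts used in these tumors.

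Of 53 complement genes in the files, the 9 included, 47 were tested, and 0 passed an adjusted p of 0.05 in edgeR's test. At an unadjusted p under 0.05, 2 were higher and 0 lower in IL-33 tumors, beside 9.99% and 1.17% of all genes. The 2 were Fcnb, a ficolin of the lectin pathway, with 22 counts in all, and C1rb with 16, and neither exceeded 0.468 CPM in any tumor. Over the 47 genes the median log2 fold change was 0.37, against 0.06 over all genes tested. IL-33 replicate 7 was the top tumor for 28 of the 47 (59.6%), beside 43.0% of all genes tested. When this tumor was left out the median over 44 genes was -0.19. At an unadjusted p under 0.05, 2 were then higher (Fcnb and Itgam) and 5 lower (Serping1, Hc, Colec12 and Fcna among them). Of all genes 1.83% were higher and 2.29% lower, and again 0 of the 44 passed an adjusted p of 0.05.

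Upstream of the proteases, C1qa and C1qb, chains of the recognition protein C1q, were abundant, and their fitted differences were near 0. C1qa was at 106, 208 and 514 CPM in vehicle tumors and at 122, 263 and 458 CPM in IL-33 tumors, with a log2 fold change of -0.02 ± 0.32 (-0.06 without IL-33 replicate 7). C1qb gave -0.03 ± 0.31 (-0.05 without it). IL-33 replicate 7, at 403 CPM of C1qa and 354 CPM of C1qb, was within the range of the others for both. Per length the C1q chains were above the C1 proteases, with medians of 221 and 225 CPM per kilobase of exon for C1qa and C1qb.

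Among the other convertase components, Cfd (factor D, which cleaves factor B) ranged from 0.939 to 221 CPM in vehicle tumors and from 1.33 to 1494 CPM in IL-33 tumors, the last value in replicate 7. The fit over 16 tumors gave 1.33 ± 1.42 on the log2 scale, and -1.28 when replicate 7 was left out. Cfp (properdin, which stabilizes the alternative convertase) was at 44.8 to 207 CPM and 38.1 to 202 CPM, with a log2 fold change of 0.03 ± 0.36 (0.05 without that tumor). Hc, the gene of C5, had 187 counts over all tumors, with a median of 0.769 CPM in vehicle and 0.242 CPM in IL-33 tumors. Its log2 fold change was -0.65 ± 0.68 (adjusted p = 0.788, edgeR). Without IL-33 replicate 7 it was -1.68 ± 0.50 (unadjusted p = 0.00378, adjusted p = 0.964, edgeR).

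The terminal components, which form the membrane attack complex, were scarce. Of 6 genes, C8a, C8b and C9 were under 10 counts over all tumors. C6 was at 3.41 to 17.3 CPM in vehicle tumors and at 0.906 to 31.8 CPM in IL-33 tumors, and C7 did not exceed 3.41 CPM except for 19.8 CPM in IL-33 replicate 7.

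The soluble inhibitors other than Serping1 were led by Clu (clusterin), at 123, 1022 and 2221 CPM in vehicle tumors and at 152, 494 and 1049 CPM in IL-33 tumors. Its log2 fold change was -1.02 ± 0.55 (unadjusted p = 0.0811, adjusted p = 0.521, edgeR), and -1.16 without IL-33 replicate 7.

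Of the membrane inhibitors, Cr1l (Crry) varied least, at 33.6 to 70.5 CPM in vehicle and 50.6 to 72.6 CPM in IL-33 tumors, with a log2 fold change of 0.07 ± 0.10 (0.09 without IL-33 replicate 7). Cd55, which speeds decay of the convertases, was at 17.4 CPM or less outside IL-33 replicate 7 and at 41.1 CPM in it. The integrin chains Itgam and Itgb2, which together form the receptor CR3 for cleaved C3b, had medians of 148 and 96.2 CPM in vehicle and 172 and 126 CPM in IL-33 tumors. Itgam gave a log2 fold change of 0.60 ± 0.37 (adjusted p = 0.583, edgeR) and 0.74 without IL-33 replicate 7 (unadjusted p = 0.0447, adjusted p = 0.964), and Itgb2 0.40 ± 0.36 and 0.53.

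**Figure D3:**
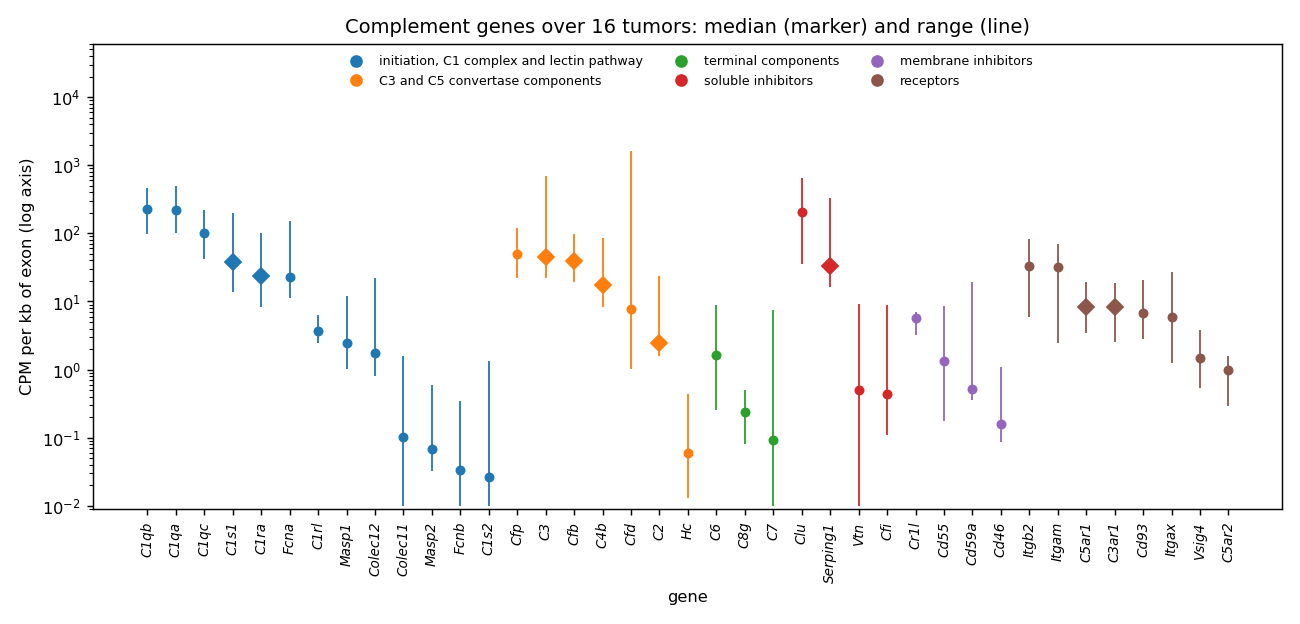
Level of 39 complement genes over 16 tumors in CPM per kilobase of exon on a log axis, by role (colour), as the median (marker, a diamond for the 9 genes) and the range (line, drawn no lower than 0.01). Genes with a median of 0.02 or less are left out. C1q chains, Clu, Cfp, C3 and Cfb lead, the terminal components C6, C8g and C7 are low, and long upward lines such as those of Cfd and C3 end at IL-33 replicate 7.

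Levels of the 9 genes were compared pair by pair across tumors. Of 36 pairs, 27 had a Pearson r of log2(CPM + 0.5) past an adjusted permutation p of 0.05 over 16 tumors, and 20 did without IL-33 replicate 7. An r of the size of the smallest one called (0.553) was reached, in either direction, by these 27 pairs and by 34.2% of all pairs of the 10857 genes with a mean of at least 5 CPM. With that tumor left out the smallest was 0.626, reached by 55.6% and 33.5%. After subtracting each group's mean the count was 25. With TMM-scaled CPM in place of CPM it was 21, and 0.553 was then reached by 58.3% of the 36 and 30.2% of all pairs. The genes of a tumor share its library and its scaling, and pairs of genes are not independent.

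C1ra and C1s1 had the highest r of the 36, 0.978 (Spearman's rho 0.968, adjusted permutation p 0.00024 and 0.00036). It was 0.958 without IL-33 replicate 7 and 0.928 without the 2 tumors farthest from the median of C1ra. Serping1 and C2 followed with r = 0.929 and rho = 0.812 (adjusted permutation p 0.00024 and 0.00144), and r was 0.831 without IL-33 replicate 7. With C1s1, whose product it inhibits, Serping1 had r = 0.722 and rho = 0.644 over 16 tumors (adjusted permutation p 0.0106 and 0.0147). Once IL-33 replicate 7 was left out, its r with C1s1 was 0.344 (adjusted permutation p 0.257) and its rho 0.568 (adjusted permutation p 0.0486), while r was 0.711 without the 2 tumors farthest from the median of C1s1.

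C3 was correlated with 5 of the other 8 genes over 16 tumors, C4b, C2, C1ra, C1s1 and Serping1 (r 0.766 to 0.879). Over the 15 tumors without IL-33 replicate 7 it passed with C1s1 (r = 0.673, adjusted permutation p 0.0118) and, by rho alone, with C1ra (rho = 0.564, adjusted permutation p 0.0486). Its r with its alternative-pathway partner Cfb was 0.389 (rho 0.427, adjusted permutation p 0.146 and 0.117). With its receptor C3ar1, C3 had r = 0.110 (rho 0.171, adjusted permutation p 0.654 and 0.527). Cfb was instead close to C1ra (rho 0.879) and to C3ar1 (r = 0.804, adjusted permutation p 0.00092, and 0.748 without the 2 farthest tumors). The 2 receptors had r = 0.768 (rho 0.674, adjusted permutation p 0.00184 and 0.0111), and 0.607 without the 2 farthest tumors.

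**Figure D4:**
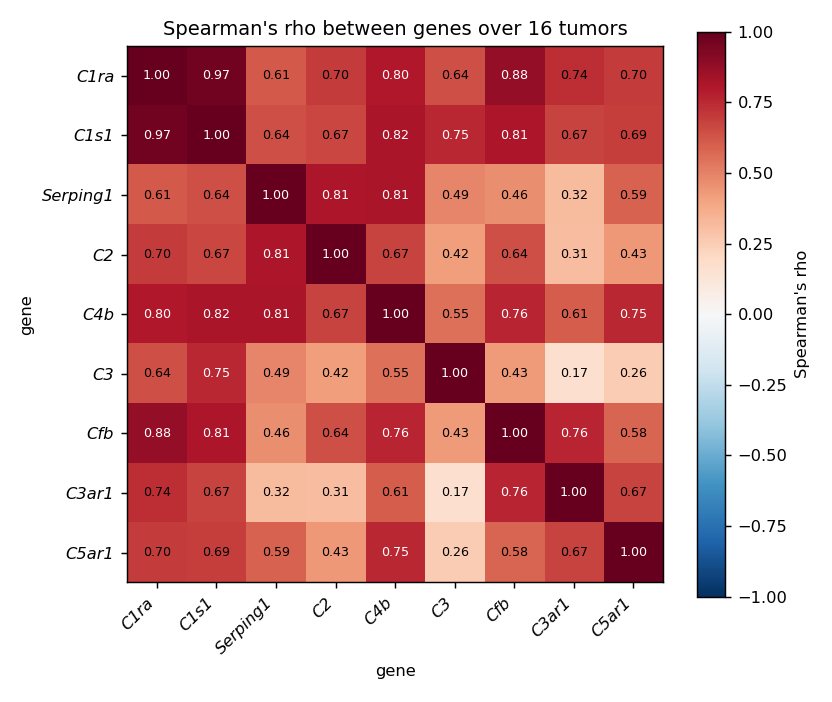
Spearman's rho between the levels of the 9 genes over 16 tumors (colour and printed value, from -1 to 1). C1ra with C1s1 has the highest value off the diagonal, 0.97, and the row of C3 has the lowest values, 0.17 with C3ar1 and 0.26 with C5ar1.

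Marker lists of cell types and of the interferon-gamma response were set beside the genes, each as its summed CPM in a tumor. None of the genes of the macrophage, neutrophil, fibroblast and interferon-gamma lists passed an unadjusted p of 0.05 between groups, while 1 of 7 mesothelial, 3 of 9 hepatocyte, 5 of 7 epithelial and 6 of 6 reproductive tract genes did. Those mesothelial, epithelial and reproductive tract genes were the ones with a higher fitted level in IL-33 tumors. Of all genes tested 11.2% passed, in either direction. Without IL-33 replicate 7 these counts were 0 of 7, 5 of 9, 1 of 6 tested and 0 of 4 tested, and 0 of those genes were higher in IL-33 tumors. Of the other lists, 2 of 10 fibroblast genes were then lower and 1 of 10 interferon-gamma genes higher. Of all genes then tested 4.12% passed, in either direction. Of 45 relations between the 9 genes and 5 lists, 29 passed an adjusted permutation p of 0.05 by Pearson's r and 20 by Spearman's rho. With TMM-scaled CPM they were 19 and 12. An r as large as the smallest one called (0.559), in either direction, was reached with the macrophage list by 8 of the 9 genes and 17.6% of the 10857 genes, with the fibroblast list by 7 and 16.9%, with the mesothelium list by 9 and 16.6%, with the interferon-gamma list by 3 and 22.6%, and with the neutrophil list by 2 and 27.0%. With IL-33 replicate 7 left out the smallest one called was 0.568. It was reached with the macrophage list by 8 of the 9 genes and 20.7% of the 10855 genes. With the fibroblast list these were 4 and 5.79%, and with the mesothelium list 6 and 13.7%. With the interferon-gamma list they were 6 and 29.8%, and with the neutrophil list 4 and 36.5%. By rho over all tumors C5ar1 alone passed with the fibroblast list. Neither the genes nor the lists were measured on sorted cells.

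C5ar1 followed the macrophage list (9 genes, 425 to 1878 CPM) with r = 0.906 and rho = 0.900 (adjusted permutation p 0.00045 and 0.0009), 0.894 without IL-33 replicate 7 and 0.857 without the 2 farthest tumors. C4b had r = 0.764 and rho = 0.888 with the same list (adjusted permutation p 0.00399 and 0.0009), and r = 0.866 without IL-33 replicate 7. For C3ar1 the values were r = 0.774 and rho = 0.774 (adjusted permutation p 0.00311 and 0.00405), falling to 0.512 without the 2 farthest tumors. C3 had r = 0.394 and rho = 0.415 with that list (adjusted permutation p 0.185 and 0.162).

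The mesothelium list summed to 341 to 1280 CPM, most of it Msln outside IL-33 replicate 7, and had a negative r with each of the 9 genes, from -0.60 for C2 to -0.79 for C5ar1. In that tumor 6 of the 9 genes were at their highest and Msln at its lowest, while 5 other mesothelial genes were at their highest, so the sum does not stand for the list. All 9 passed an adjusted permutation p of 0.05 by r and 7 by rho, and 6 by r without IL-33 replicate 7. The neutrophil list, highest in vehicle replicate 4 (519 CPM, 59.9 to 219 CPM elsewhere), passed with the 2 receptors only, at r = -0.59 for C3ar1 and -0.57 for C5ar1 (adjusted permutation p 0.0341 for both), and neither passed by rho (adjusted permutation p 0.0509 and 0.0595).

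The interferon-gamma list (10 genes, among them Irf1, Cxcl9 and Gbp2) separated the tumors into 11 with 367 to 757 CPM and 5 with 1601 to 2491 CPM, 3 of the 5 from the IL-33 group and 2 from the vehicle group. Cfb was at 120, 235 and 278 CPM (lowest, median and highest) in the 5 and at 55.1, 90.8 and 188 CPM in the 11. C3ar1 was at 36.9, 64.5 and 80.4 CPM in the 5 and at 10.98, 32.3 and 43.8 CPM in the 11. The highest 4 tumors of both genes were among the 5. C3 was at 135, 302 and 403 CPM in the 5 and at 113, 214 and 3512 CPM in the 11, and the sets overlapped over most of their range.

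Since the tumors fell into 2 sets on this list, a relation was computed within the 11 only. For C3ar1 it gave r = 0.806 and rho = 0.609 (permutation p 0.00552 and 0.0523, adjusted p 0.0497 and 0.423 over 18 such relations), and 0.381 without the 2 tumors farthest from the median. For Cfb it gave r = 0.666 and rho = 0.536 (permutation p 0.0263 and 0.0940, adjusted p 0.158 and 0.423), and 0.330 without those 2. Within the 11 tumors both relations rest on the 2 tumors left out, and the higher level in the 5 is a difference between sets of tumors defined by the list. By rho C1ra and C1s1 also passed with this list over all tumors (0.703 and 0.609, adjusted permutation p 0.0101 and 0.0337). Neither did by r. Their r without IL-33 replicate 7 was 0.818 and 0.747 (adjusted permutation p 0.00165 and 0.0065). Within the 11 their r was 0.48 and 0.40 (adjusted permutation p 0.372 and 0.516).

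The fibroblast list also fell into 2 sets, 12 tumors with 571 to 1644 CPM and 4 with 3991 to 15340 CPM (IL-33 replicates 3 and 7 and vehicle replicates 3 and 7). Serping1 was at 124 to 768 CPM in the 4 and at 37.6 to 137 CPM in the 12. C2 was at 14.2 to 92.0 CPM in the 4 and at 6.11 to 12.2 CPM in the 12, with no overlap in CPM. Vehicle replicate 4, with the lowest TMM factor (0.640), is among the 12, and the sets of C2 are apart in CPM without TMM scaling only. Within the 12 tumors neither gene followed the list (r = 0.06 for Serping1 and -0.17 for C2, permutation p 0.853 and 0.583, adjusted p 0.998 and 0.919). C5ar1 did by r only (r = 0.758, rho = 0.650, permutation p 0.00486 and 0.0257, adjusted p 0.0497 and 0.423), with 0.555 left without the 2 farthest tumors. The sum of the hepatocyte list was 0.241 to 40.4 CPM, with Alb at 22.9 CPM or less. It was highest in vehicle replicate 2, in which none of the 9 genes had its highest level. IL-33 replicate 7, in which 6 of the 9 were highest, came next with 9.86 CPM, and no other tumor exceeded 1.51 CPM. The part of liver RNA in these levels was not tested.

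The genes most like each of the 9 were named by Spearman's rho among the 10857 genes with a mean of at least 5 CPM over the 16 tumors. They are the top of a large search, with values that carry no test. For C3 they were Arhgap31 (0.868), Gm20716 (0.841) and Wdr11 (0.829), and for C4b Tbxas1 (0.944), Ncf1 (0.926) and Nfam1 (0.918). C2 was closest to Igfbp7 (0.926), Panx1 (0.903) and Acta2 (0.894), and Serping1 to Actg2 (0.924), Sgce (0.915) and Gpx7 (0.915). Cfb had Oasl2 (0.968), Il18bp (0.968) and Ly9 (0.962) at its side.

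For the C1 proteases the search returned each other first (0.968), then Fli1 (0.962) and Pde8a (0.959) for C1ra, and Atp2b4 (0.947) and Olfml2b (0.944) for C1s1. C3ar1 was closest to Cybc1 (0.947), Mitd1 (0.932) and Apobec3 (0.929), and C5ar1 to Nxpe5 (0.959), Tek (0.929) and Usp21 (0.929). The first gene stayed first without IL-33 replicate 7 for 7 of the 9.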

How the data were processed

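Whole tumor RNA was selected by poly(A) and sequenced in 16 tumors. The authors deposited raw read counts per gene for each tumor, and per the labels' processing notes HISAT2 and featureCounts were run on mm10; versions, annotation and use of strand were not given in the sources used here. Groups came from the labels. Symbols and coordinates of 22255 of the 22298 Ensembl identifiers were taken from GENCODE M21 (GRCm38). CPM values were computed from each tumor's total, which was at least 14139268 counts, so counting error is small except in genes such as C1rb with a handful of reads.

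Every gene that reached 10 counts summed over all tumors was tested with edgeR 4.0.16 (R 4.3.3; TMM, glmQLFit, glmQLFTest, two-sided, Benjamini-Hochberg over all genes tested). The standard error is the absolute log2 fold change over the square root of F, and the 95% interval uses the t distribution. Group means of log2(CPM + 0.5) were also compared gene by gene with an exact permutation test, two-sided. It ran through 12870 assignments, or 6435 without IL-33 replicate 7, and its smallest possible p is about 0.0002 in both. Correlations used 100000 permutations, with adjustment over 36 pairs or 45 relations. Alternatives were DESeq2 1.42.0, limma 3.58.1 voom with sample quality weights, other scalings and filters, a replicate block and leaving out each tumor. A relation within sets of tumors was added where a list's summed level left a gap of over 2-fold between neighbouring tumors, with at least 4 tumors on each side. The tests were checked on simulated data.

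The 9 genes and all lists were chosen with earlier results of these data known. Named complement genes are, per role, the 2 others with the highest mean CPM, those with an unadjusted p under 0.05, and the copies C1rb and C1s2; 1 such gene is not reported here. Promoter sequences are from RefSeq (GRCm38.p6). No count of a multi-copy gene was corrected.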

Additional observations from a re-analysis of the deposited data

Results flagged for a closer look

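Within the IL-33 group of 8 tumors, 1 tumor lay far from the other 7 for 6 of the 9 genes by Dixon's criterion (the gap to the nearest tumor, as a share of the group's range, above the 95% critical value for 8 tumors). Each time it was IL-33 replicate 7, with 3512 CPM of C3, 494 CPM of C4b, 92.0 CPM of C2, 301 CPM of C1ra, 621 CPM of C1s1 and 768 CPM of Serping1. The gap took up 0.736 (C1ra) to 0.921 (C3) of the range. Chance alone would single out about 1 in 20 such groups if values were normally distributed, and the CPM used here were not transformed. The 6 values are from 1 tumor and not separate events. The share of all genes past this criterion was not computed, and IL-33 replicate 7 had the highest level of 43.0% of all genes tested. The same tumor carried the reproductive tract, fibroblast and epithelial genes described above, and their part in these values was not tested. The vehicle group had no such tumor for any of the 9 genes.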

How the results depend on the processing

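None of the 9 genes passed an adjusted p of 0.05 in any of the 25 other fits (smallest adjusted p 0.413), so only signs and unadjusted counts moved. Leaving out 1 tumor at a time, the log2 fold change ranged from -0.28 to 1.22 (C3), -0.22 to 0.36 (C4b), -0.57 to 0.63 (C2), -0.0697 to 0.56 (C1s1), -0.82 to 0.36 (Serping1), -0.0392 to 0.29 (C3ar1) and -0.35 to 0.0595 (C5ar1). The lowest value of the first 5 was without IL-33 replicate 7, of C3ar1 and C5ar1 without IL-33 replicate 3. Cfb and C1ra stayed above 0. DESeq2 replaced the count of IL-33 replicate 7 for C3 and C2 by its outlier rule and gave -0.27 and -0.57. The same rule replaced a count for 3269 genes in all. limma voom, which weights tumors by quality, gave -0.26 (C3), -0.14 (C4b), -0.28 (C2), -0.10 (C1s1) and -0.47 (Serping1). DESeq2 without IL-33 replicate 7 (chosen after seeing the data) gave -0.29 (C3), -0.24 (C4b), -0.58 (C2), -0.0804 (C1s1) and -0.84 (Serping1), and edgeR without that tumor and vehicle replicate 4 (likewise) gave -0.26, -0.15, -0.55, -0.15 and -0.65, with 0 members past an unadjusted p of 0.05 (Serping1 0.0632). TMM-scaled CPM gave a mean difference of -0.0017 for C2 in the exact permutation test, and leaving out IL-33 replicate 7 there gave -0.26 for C3, -0.16 for C4b, -0.32 for C2 and -0.0104 for C1s1.

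The labels did not state that numbered tumors of the 2 groups were paired, and the main fit did not pair them. Deviations of same-numbered tumors from their group means correlated from -0.318 to 0.351, and tumors of unlike number were not compared. With a replicate block C2 gave -0.0165, Serping1 -0.34, C1qa 0.10, C1qb 0.0490, Cfd -0.28, C7 -0.35 and Cd55 -0.33, and 0 complement genes were higher at an unadjusted p.

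Of the other complement genes, limma voom turned C1qa (0.34), C1qb (0.31), Cfd (-1.51), C7 (-1.12) and Cd55 (-0.59), and DESeq2 turned Cfd (-0.0671) and C7 (-0.57). Leaving out 1 tumor gave -0.18 to 0.20 for C1qa, -0.19 to 0.16 for C1qb, -1.28 to 2.47 for Cfd, -0.19 to 0.26 for Cfp, -1.47 to 2.32 for C7 and -0.74 to 0.28 for Cd55. Why the signs turned was not tested beyond the tumors named.

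The count of members lower at an unadjusted p was 1 with DESeq2 on 15 tumors and 0 to 1 on leaving out 1 tumor, each time without IL-33 replicate 7. Complement genes higher at an unadjusted p numbered 0 with DESeq2 and with filterByExpr (which tests fewer genes), 1 with limma voom and with DESeq2 on 15 tumors, and 0 to 4 on leaving out 1 tumor. Those lower numbered 2 with DESeq2, 6 with limma voom, 9 with DESeq2 on 15 tumors, 3 with edgeR on 14 tumors and 0 to 5 on leaving out 1 tumor. Over all genes, in either direction, 691 with DESeq2 and 966 with limma voom of 16817 reached an unadjusted p under 0.05. The counts were 678 of 15803 with DESeq2 on 15 tumors, 659 of 15744 with edgeR on 14 tumors and 640 of 12800 with filterByExpr. On leaving out 1 tumor they ran from 651 to 2163. Correlated pairs numbered 20 to 29 and relations with lists 25 to 30 on leaving out 1 tumor, with 19 relations for TMM-scaled CPM and 20 for Spearman's rho. Scaling moved the median of all genes by less than 0.1.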
